A study of Mus musculus with 12 samples.

Results

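Hepatocytes carrying a P16 vector were compared with hepatocytes carrying a GFP vector before any surgery (0 h), in 3 P16 and 3 GFP libraries of 12 in the series. Both groups were wild-type C57BL/6J mice aged 3 months, fed standard chow, and each library came from 1 mouse. P16 mice had received AAV8-TBG-eGFP-P16 by tail vein, and GFP mice had received AAV8-TBG-eGFP, so an adeno-associated virus and eGFP were common to both arms. The injection preceded hepatectomy by 1 week. Hepatocytes were isolated by collagenase perfusion, with a stated viability and purity of at least 95%, and poly(A) RNA was sequenced. The other 6 libraries came from mice of the same 2 arms taken 48 h after removal of 70% of the liver. All genes that passed a filter on low counts were described, which were 12257 of 31053 in the count table. TBG is a promoter active in hepatocytes, so expression of P16 was directed to that cell type. The sources used here do not say whether the vector carried the mouse or the human sequence, nor give the sex of the mice.

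P16 is the INK4 inhibitor encoded by Cdkn2a. It binds CDK4 and CDK6 and keeps them from their D cyclin partners, so that the retinoblastoma protein stays active and holds back the E2F factors that start DNA replication. It accumulates in senescent cells, which leave the cell cycle for good and often secrete inflammatory factors. Adult hepatocytes at rest are already outside the cell cycle and spend their transcription on plasma proteins, glucose, lipid, bile acid and nitrogen metabolism.

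The libraries differed among themselves before any gene is considered. P16 libraries held 14617049 to 18659384 reads in genes and GFP libraries 14993534 to 19951174. Mitochondrial transcripts took 22.6, 12.9 and 16.1% of the reads of P16 replicates 1, 2 and 3, and 14.5, 21.4 and 21.4% of those of GFP replicates 1, 2 and 3. The first principal component of the 6 libraries held 32.1% of the variance and put all P16 libraries below all GFP libraries (P16 at -44.16, -17.13 and -29.7, GFP at -4.68, 53.97 and 41.7), while the second, with 20.9%, separated replicates within each arm. GFP replicate 2 stood apart in acute phase and macrophage genes, and P16 replicate 1 in immediate early genes. The 20 hepatocyte markers summed to 117951.5 to 136214.5 read counts scaled to library size (CPM) in P16 libraries and 104669.3 to 149016.5 CPM in GFP libraries, which fits the labelled cell type in every library. Reads of the Y-linked Ddx3y numbered 686 to 941 in P16 and 725 to 738 in GFP libraries, and the X inactivation transcript Xist had 0 in P16 and 0 to 3 in GFP libraries.

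Cdkn2a (ENSMUSG00000044303, chromosome 4, 89274471 to 89294653, minus strand, GRCm38) checks the labels. It had 620, 105 and 355 reads in the P16 libraries, or 49.2, 6.38 and 25.1 CPM, and 0 reads in each of the 3 GFP libraries. Reads of the delivered gene and of the mouse gene were not separated. All 3 P16 libraries stood above the GFP libraries, and the P16 mean of 26.9 ± 21.5 CPM (SD, n = 3) was at least 131-fold higher than what 3 counts in a GFP library would give. The P16 libraries spread from 6.38 to 49.2 CPM. The edgeR adjusted p was 0.0914, and over the alternative settings it ran from 1.83e-07 to 0.513. It was 0.00901 without P16 replicate 2, the library with the fewest Cdkn2a reads, and 0.0685 to 0.217 without any other single library. In bulk RNA, fewer cells with a transcript and less of it per cell cannot be told apart, here and for every gene below. The neighbouring INK4 gene Cdkn2b had 1 to 3 reads in P16 and 0 to 1 reads in GFP libraries.

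Few single genes passed the edgeR test between the arms in resting hepatocytes, and Cdkn2a itself was not among them. In all, 27 genes (0.220% of those tested) passed at an adjusted p under 0.05 with the edgeR quasi-likelihood test, of which 15 rose (0.122%) and 12 fell (0.0979%). DESeq2 called 214 genes (1.75%) on the same counts. Without adjustment, 867 genes were higher (7.07%) and 785 lower (6.40%) at a p under 0.05, and the groups did not overlap for 931 genes on the higher side (7.60%) and 838 on the lower side (6.84%). These shares are the background against which gene groups are read below. The median log2 fold change over all genes was 0.004, with a median standard error (SE) of 0.205. The genes that rose included the flavoprotein subunit Etfb, the tautomerase Ddt and the receptor Erbb3, and those that fell included the mitochondrial carriers Slc25a25 and Ucp2 and the aminotransferase Got1.

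**Figure D1:**
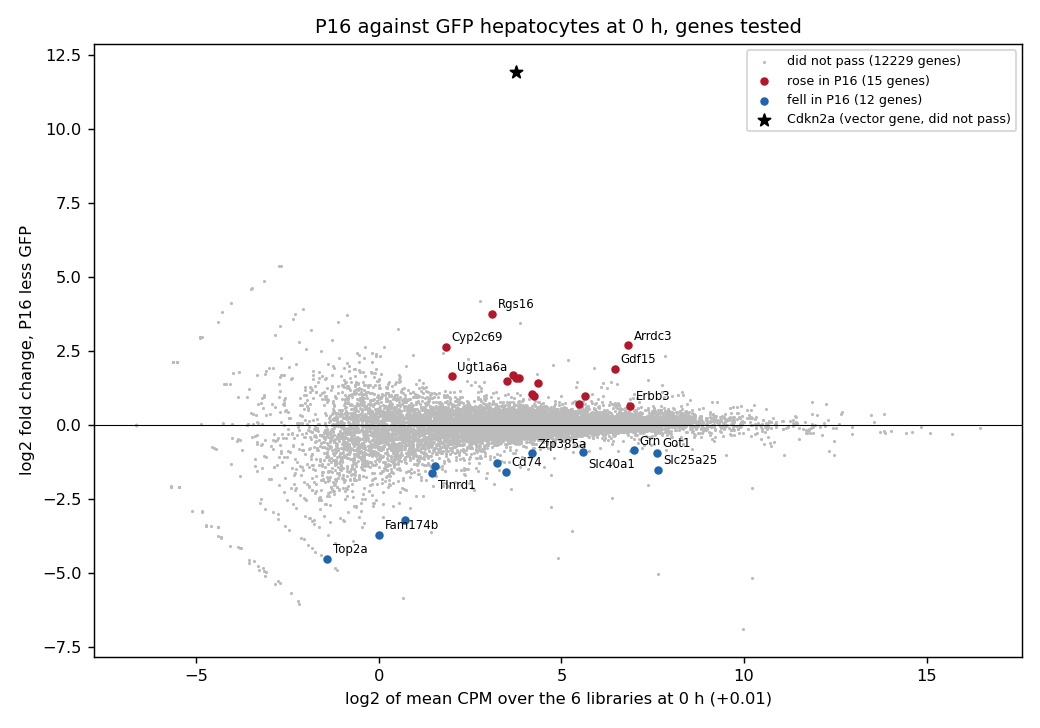
Each point is 1 gene, with the log2 of its mean CPM over the 6 libraries on the x axis and the log2 fold change, P16 less GFP, on the y axis. The 15 genes that rose and the 12 that fell lie on a cloud centred near 0, and Cdkn2a stands alone at the top, where its fitted fold depends on the prior count because the GFP libraries had 0 reads.

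Slc25a25 was the gene with the lowest p. It encodes a calcium-regulated carrier that exchanges ATP-magnesium for phosphate across the inner mitochondrial membrane (chromosome 2, 32414487 to 32451445, minus strand). Its level was 119.1, 91.5 and 102.4 CPM in the P16 libraries, against 279.8, 334.7 and 277 CPM in the GFP libraries. The highest P16 library was thus far below the lowest GFP library, and Slc25a25 fell 2.85-fold (log2 fold change -1.51, SE 0.15, edgeR adjusted p = 7.92e-05, at most 0.0037 over 15 alternatives). Ucp2, another inner membrane carrier of the SLC25 family, which resident macrophages of the liver also express, stood at 6.35, 4.44 and 5.66 CPM in P16 and 8.06, 16 and 16 CPM in GFP libraries. It fell 2.46-fold (-1.30, SE 0.23, adjusted p = 0.0273, at most 0.222). Over all 36 SLC25 carriers the median log2 fold change was -0.01, and 0 rose. The third by p, the glutamate carrier Slc25a22, was at -0.26 (adjusted p = 0.355).

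Got1, the cytosolic aspartate aminotransferase of the malate-aspartate shuttle (chromosome 19, 43499752 to 43524605, minus strand), had 144.4, 141.9 and 118.4 CPM in P16 libraries and 256.2, 247.9 and 273.5 CPM in GFP libraries. The libraries of each arm lay close together, and Got1 fell 1.92-fold (-0.94, SE 0.16, edgeR adjusted p = 0.0159, at most 0.0973). Etfb, the beta subunit of the flavoprotein that takes electrons from acyl-CoA dehydrogenases, had 24.6, 13.7 and 19.6 CPM in P16 and 7.23, 5.08 and 5.54 CPM in GFP libraries. Etfb rose 3.25-fold (1.70, SE 0.30, adjusted p = 0.0298, at most 0.235), and its exons overlap the gene models Gm45233 and Mir7051. The 2 genes moved in opposite directions, and neither arm's range met the other's.

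Among enzymes and other intracellular proteins, Ddt and Rnf186 were the rises that held best. Ddt, the D-dopachrome tautomerase related to the cytokine MIF (chromosome 10, 75771230 to 75773414, minus strand), had 24.9, 21.5 and 17.7 CPM in P16 libraries and 7.98, 6.87 and 6.58 CPM in GFP libraries. It rose 2.99-fold (1.58, SE 0.21, edgeR adjusted p = 0.00222, at most 0.0137). Rnf186, a RING-type ubiquitin ligase (chromosome 4, 138967112 to 138968360, plus strand), had 18.3, 14.7 and 17.7 CPM in P16 and 6.25, 5.02 and 6.81 CPM in GFP libraries. It rose 2.81-fold (1.49, SE 0.20, adjusted p = 0.00222, at most 0.0219). For both genes the lowest P16 library was over 2 times the highest GFP library. Cyp2c69, a cytochrome P450 of family 2C, had 4.37, 5.41 and 8.71 CPM in P16 libraries and 0.828, 1.34 and 0.748 CPM in GFP libraries. It rose 6.22-fold (2.64, SE 0.43, adjusted p = 0.0159, at most 0.0973).

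Ugt1a6a, a glucuronosyltransferase of phenols, had 5.96, 5.84 and 6.37 CPM in P16 and 2.18, 1.95 and 1.65 CPM in GFP libraries. It rose 3.13-fold (1.65, SE 0.31, edgeR adjusted p = 0.0311, at most 0.156). Ugt1a6a shares its last exons with the other Ugt1a genes, so its count is uncertain, and its family member Ugt1a9 stood at -0.72 (adjusted p = 0.189). Tmem25 and Ttc36 are neighbours on chromosome 9 (44793769 to 44799307 and 44799397 to 44803072, both minus strand), and the exons of both overlap the gene model Gm48702. Tmem25 had 77.9, 56.4 and 65.4 CPM in P16 and 30.5, 29.1 and 43 CPM in GFP libraries and rose 1.95-fold (adjusted p = 0.0165, at most 0.159). Ttc36 had 31.1, 34.1 and 24.9 CPM in P16 and 16.1, 7.81 and 9.73 CPM in GFP libraries and rose 2.69-fold (adjusted p = 0.0358, at most 0.228). Whether the shared gene model moved both counts was not tested. The zinc finger gene Zkscan3 had 60.6, 51 and 54 CPM in P16 and 33, 32.3 and 36.8 CPM in GFP libraries and rose 1.62-fold (adjusted p = 0.0273, at most 0.159).

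Signalling genes made up most of the other rises. Rgs16, which speeds the GTPase of G protein alpha subunits, had 19.2, 10.3 and 18.6 CPM in P16 libraries and 2.33, 1 and 0.224 CPM in GFP libraries, and rose 13.5-fold (3.76, SE 0.51, edgeR adjusted p = 0.00729, at most 0.159). Arrdc3, an alpha-arrestin, had 295.1, 150.4 and 143.6 CPM in P16 and 36.8, 29 and 25.6 CPM in GFP libraries, and rose 6.45-fold (2.69, SE 0.38, adjusted p = 0.0305, at most 0.17). Every P16 library of Arrdc3 was several-fold above every GFP library, with P16 replicate 1 the highest. Gdf15, a stress-induced hormone that acts on feeding centres, had 172, 102.1 and 143.3 CPM in P16 and 58.4, 22.4 and 30.9 CPM in GFP libraries, and rose 3.75-fold (adjusted p = 0.0358, at most 0.365). Hes1, a transcriptional repressor induced by Notch, had 23.5, 11.4 and 26 CPM in P16 and 8.51, 6.59 and 5.01 CPM in GFP libraries, and rose 3.02-fold (adjusted p = 0.0311, at most 0.321).

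Receptors were the other set of signalling genes that rose. Erbb3, the neuregulin receptor of the EGF receptor family, had 155.9, 127 and 147.6 CPM in P16 and 100.7, 84.8 and 88.1 CPM in GFP libraries and rose 1.57-fold (0.65, SE 0.12, edgeR adjusted p = 0.0298, at most 0.17). Epha2, an ephrin receptor kinase, had 16.7, 25.1 and 32.2 CPM in P16 and 10.3, 15.1 and 10.3 CPM in GFP libraries and rose 2.06-fold (adjusted p = 0.0428, at most 0.342). Il15ra, the interleukin 15 binding chain, had 31.8, 23.8 and 20.7 CPM in P16 and 12.4, 15.1 and 10.8 CPM in GFP libraries and rose 1.98-fold (adjusted p = 0.0305, at most 0.17). The Epha2 groups were the closest of these, with the lowest P16 library at 16.7 CPM and the highest GFP library at 15.1 CPM.

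Other genes that fell were Grn, Cd74, Slc40a1 and Zfp385a. Grn, which encodes progranulin, a secreted and lysosomal glycoprotein, had 89.6, 89.8 and 92.7 CPM in P16 libraries and 136.5, 206.9 and 145.7 CPM in GFP libraries, and fell 1.80-fold (-0.85, SE 0.15, edgeR adjusted p = 0.0273, at most 0.159). The P16 values of Grn were close to each other, and GFP replicate 2 was the highest library. Cd74, the invariant chain of MHC class II, had 4.69, 7.66 and 4.39 CPM in P16 and 10.3, 15.5 and 24.7 CPM in GFP libraries and fell 3.00-fold (adjusted p = 0.0305, at most 0.203). Slc40a1, the iron exporter ferroportin, had 38.6, 30.3 and 30.9 CPM in P16 and 50.8, 84.8 and 52.9 CPM in GFP libraries and fell 1.89-fold (adjusted p = 0.0358, at most 0.305). The zinc finger gene Zfp385a had 13.8, 10.9 and 13 CPM in P16 and 21.5, 30.4 and 20.9 CPM in GFP libraries and fell 1.94-fold (adjusted p = 0.0349, at most 0.159). Macrophage markers, a list that holds Cd74 and Slc40a1, moved with these genes, with a summed level of 87 to 116.9 CPM in P16 and 132.8 to 367.9 CPM in GFP libraries, and their part in these falls was not tested.

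A further 5 genes that fell were low in every library. Tlnrd1, an actin-binding protein with a talin rod domain, had 1.51, 1.22 and 1.35 CPM in P16 and 3.24, 5.47 and 3.74 CPM in GFP libraries and fell 3.09-fold (edgeR adjusted p = 0.0159, at most 0.288). Fam81a had 1.59, 1.46 and 1.77 CPM in P16 and 4.14, 3.35 and 5.09 CPM in GFP libraries and fell 2.59-fold (adjusted p = 0.0347, at most 0.348). Fam174b had 1, 2 and 3 reads in P16 libraries and 15, 60 and 15 reads in GFP libraries (adjusted p = 0.0382, at most 0.363). Top2a, the topoisomerase of dividing cells, had 1, 0 and 0 reads in P16 and 7, 7 and 16 reads in GFP libraries, a ratio of 0.0344 with a 95% counting interval of 0.000844 to 0.207 (adjusted p = 0.0311, at most 0.246 over 14 alternatives). Top2a passed the filter only through the 48 h libraries, at 47.1 CPM in P16 and 46.2 CPM in GFP. With the 6 libraries at 0 h alone it was not tested. The last was 1 unnamed gene model.

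**Figure D2:**
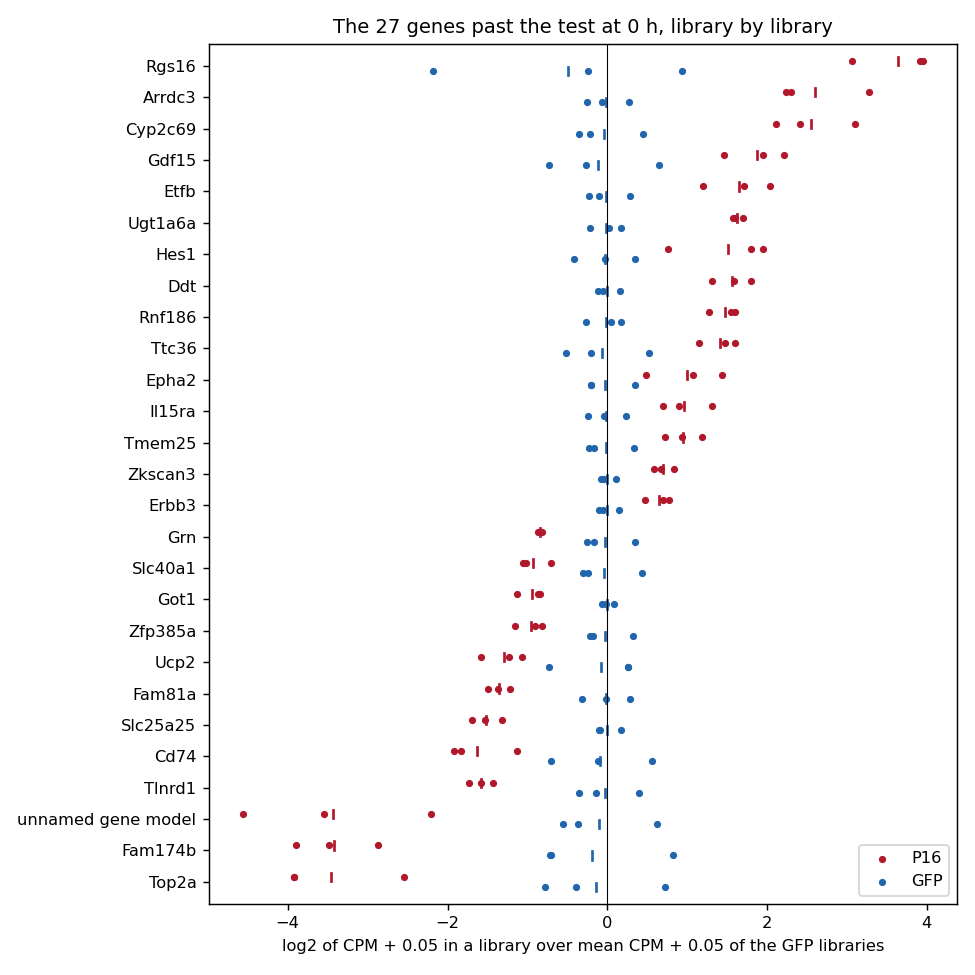
Each row is 1 of the 27 genes, and each point is 1 library, as the log2 of its CPM plus 0.05 over the GFP mean plus 0.05, with P16 in red above GFP in blue and a short bar at the mean of 3 libraries. P16 and GFP points do not overlap in any row, and the GFP libraries of Rgs16 spread more widely than those of Slc25a25 or Ddt.

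Which genes passed depended on single libraries. Slc25a25, Ddt and Rnf186 kept their calls under all 15 alternatives, and no other of the 27 did. Without P16 replicate 3 the count of calls fell to 5, all among the 27, and they were Slc25a25, Ddt, Rnf186, Rgs16 and Il15ra. Without GFP replicate 3, 12 genes passed, with 10 of the 27 kept. Without GFP replicate 1, 148 passed with 26 of the 27 kept, and without P16 replicate 2, 47 passed with 18 kept. Without GFP replicate 2 the count was 26, with 17 of the 27 kept, and without P16 replicate 1 it was 21, with 11 kept. In 6 of the 15 genes that rose and 6 of the 12 that fell an exon overlapped another gene model, as in 37.0% of all genes tested, so such counts may lack ambiguous reads or hold those of a neighbour. Besides the pairs given above these were Slc25a25 with Naif1, Ddt with Gm20441, Rgs16 with Gm28513, Grn with Fam171a2, Ucp2 with Dnajb13, Cd74 with Mir5107, Top2a with Gm23451 and Fam174b with A830073O21Rik. Reads set aside as ambiguous made up 4.87, 5.73 and 5.40% of the P16 libraries and 7.10, 6.49 and 5.68% of the GFP libraries, and their part in these results was not tested.

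Promoters were searched for 6 motifs on both strands, in windows from 250 bases before to 50 bases after the start in the RefSeq promoter table (GRCm38.p6). Of the 27 genes 20 had a window. These genes held 27 windows, so counts of genes and shares of all windows are unlike measures. The full cAMP response element TGACGTCA was found in 1.79% of all 32851 windows, and in those of Slc25a25, which fell, and Epha2, which rose. The E-box CACGTG was found in 7.15% of all windows, and in those of Ddt and Gdf15, which both rose. No window of these 4 genes held both motifs. Their 250 bases before the start are shown 5′ to 3′ because these 4 carry the motifs best known for cAMP signalling and for bHLH factors, with the motif in capitals. The intervals in GRCm38.p6 are chr2:32424067-32424316 (minus strand) for Slc25a25, chr4:141300971-141301220 (plus strand) for Epha2, chr10:75773375-75773624 (minus strand) for Ddt and chr8:70632096-70632345 (minus strand) for Gdf15.
Slc25a25: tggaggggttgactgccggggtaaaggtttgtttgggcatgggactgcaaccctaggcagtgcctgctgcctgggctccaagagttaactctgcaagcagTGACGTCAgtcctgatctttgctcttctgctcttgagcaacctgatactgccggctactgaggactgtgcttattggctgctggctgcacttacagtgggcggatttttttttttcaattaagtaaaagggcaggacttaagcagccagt
Epha2: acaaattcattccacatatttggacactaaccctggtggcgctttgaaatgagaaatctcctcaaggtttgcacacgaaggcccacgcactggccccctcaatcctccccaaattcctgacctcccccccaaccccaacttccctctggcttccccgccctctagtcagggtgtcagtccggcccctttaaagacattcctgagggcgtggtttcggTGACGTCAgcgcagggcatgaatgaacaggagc
Ddt: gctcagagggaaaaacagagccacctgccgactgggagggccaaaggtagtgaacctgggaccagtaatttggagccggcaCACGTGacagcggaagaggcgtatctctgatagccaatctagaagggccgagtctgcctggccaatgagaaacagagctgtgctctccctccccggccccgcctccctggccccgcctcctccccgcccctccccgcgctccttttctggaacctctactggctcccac
Gdf15: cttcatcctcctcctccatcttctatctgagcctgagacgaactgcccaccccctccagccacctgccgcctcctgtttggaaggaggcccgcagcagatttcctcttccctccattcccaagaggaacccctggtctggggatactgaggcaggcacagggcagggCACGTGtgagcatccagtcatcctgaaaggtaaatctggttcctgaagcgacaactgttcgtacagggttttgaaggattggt
The first base of the motif lay 150 bases before the start in Slc25a25, 33 in Epha2, 169 in Ddt and 83 in Gdf15, and the Slc25a25 start used by the table lies inside the span of the gene given above. The D-box TTATGTAA was in 0.938% of all windows and in 0 of the 20 genes with one. The nuclear receptor hexamer AGGTCA (16.3% of all windows) was in 3 of these genes, CCAATC (16.1%) in 9 and TTTGAA (17.9%) in 8. A match describes letters in a window and shows no binding.

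Feeding-responsive genes held 2 of the 15 rises. Of 31 tested genes known to follow insulin, glucagon and fasting, Rgs16 and Arrdc3 rose, 0 fell, 8 were higher at an unadjusted p under 0.05 (25.8%, against 7.07% of all genes) and 2 were lower (6.45%, against 6.40%). The list median was 0.10. Since members follow signals of feeding or of fasting, this median cannot tell whether they moved together. Txnip, an alpha-arrestin that restrains glucose uptake, had 50, 26.8 and 49.8 CPM in P16 and 19.6, 25 and 19.8 CPM in GFP libraries (0.97, SE 0.20, edgeR adjusted p = 0.0547). G6pc, the glucose-6-phosphatase that releases glucose from hepatocytes, had 215.6, 178.5 and 251.6 CPM in P16 and 324.6, 315.7 and 391.3 CPM in GFP libraries (-0.68, SE 0.17, adjusted p = 0.118). Neither gene overlapped between the groups.

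Clock genes were measured beside them, since feeding and clock outputs follow the hour at which cells are taken, an hour that the sources used here do not state. Of 22 clock genes 0 passed, 2 were higher (9.09%) and 2 lower (9.09%) at an unadjusted p under 0.05, and the median was 0.19, or 0.05 to 0.40 without single libraries. Since members went in both directions, the median and these counts cannot tell whether the clock was shifted. Nr1d1, the repressor REV-ERB alpha, had 138.8, 71 and 74 CPM in P16 and 36.4, 19.8 and 18.3 CPM in GFP libraries (1.93, SE 0.36, edgeR adjusted p = 0.0839, DESeq2 adjusted p = 5.52e-08). Dbp, an output factor of the clock, had 24.4, 12.2 and 1.91 CPM in P16 and 0.904, 1 and 0.0748 CPM in GFP libraries (4.20, SE 1.05, adjusted p = 0.176). Cry1, a core repressor, was at -0.59 (adjusted p = 0.201). Nr1d1 and Dbp were higher in all 3 P16 libraries, and their part in the rises of Rgs16 and Arrdc3 was not tested.

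Immediate early genes had the highest list median. These fast-induced transcription and feedback genes had a median of 1.04 over 24 members, with 15 higher (62.5%) and 3 lower (12.5%) at an unadjusted p under 0.05 and 0 past the test. Dusp6, a phosphatase that turns off ERK, had 59.6, 35.3 and 56.3 CPM in P16 and 34.7, 28.4 and 24.3 CPM in GFP libraries (0.79, SE 0.18, edgeR adjusted p = 0.0794). Fosl2, an AP-1 subunit, was at -0.86 (adjusted p = 0.153), and Ier3 at -4.29 with 0 to 0.0608 CPM in P16 and 0.226 to 1.06 CPM in GFP libraries (adjusted p = 0.137). Ier3 passed the filter only through the 48 h libraries. The list score, the mean log2 CPM of the members less the mean of the GFP libraries, was 1.31, 0.02 and 0.52 in P16 libraries and 0.22, -0.15 and -0.07 in GFP libraries. P16 replicate 1 was the highest library, P16 replicate 2 lay within the GFP range, and without P16 replicate 1 the median was 0.54.

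Stress genes moved less, and mostly without a call. Of 16 heat shock genes 7 were higher (43.8%) and 0 lower at an unadjusted p under 0.05, with a median of 0.35, or 0.18 without P16 replicate 3, and 0 past the test. Stip1, which links the chaperones HSP70 and HSP90, had 107.9, 92.1 and 150.3 CPM in P16 and 74.9, 72 and 75.1 CPM in GFP libraries (0.66, SE 0.15, edgeR adjusted p = 0.0763). Hsp90aa1 was at 0.94 (adjusted p = 0.159) and Hspe1, the mitochondrial cochaperonin, at 0.52 (adjusted p = 0.192). Of 20 genes of serine synthesis and the integrated stress response Gdf15 rose, and the list median was -0.14. In this list 4 were higher (20.0%) and 3 lower (15.0%) at an unadjusted p under 0.05. Atf3, a stress-induced factor, had 58.7, 5.41 and 15.2 CPM in P16 and 4.59, 1.12 and 1.65 CPM in GFP libraries (3.46, SE 0.95, adjusted p = 0.196). ER chaperones had a median of 0.15 over 26 genes, with Hsp90b1 at 0.41 (adjusted p = 0.196). NRF2 and antioxidant genes had a median of 0.05 over 22 genes, with the factor Nfe2l2 at 0.52 (adjusted p = 0.176).

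Subunits of the respiratory chain, the ribosome and the proteasome were mostly higher by modest amounts, with 0 single genes past the edgeR test. Of 75 nuclear genes of the respiratory chain 28 were higher at an unadjusted p under 0.05 (37.3%, against 7.07% of all genes) and 0 lower, 25 were higher and 0 lower without overlap, and the median was 0.27. Of 78 ribosomal protein genes 29 were higher (37.2%) and 0 lower, with a median of 0.26, and of 31 proteasome subunits 7 were higher (22.6%) and 0 lower, with a median of 0.18. The lowest p values of the respiratory chain belonged to Atp5o, a subunit of ATP synthase (0.90, SE 0.20, adjusted p = 0.0763), and Ndufb4, of complex I (0.64, SE 0.18, adjusted p = 0.161). Among ribosomal proteins Rpl23a was at 1.09 and Rpl39 at 0.67 (adjusted p 0.0899 and 0.104). Single ribosomal protein genes have processed pseudogenes and are uncertain. The proteasome subunits with the lowest p were Psma2 and Psmb3, at 0.35 and 0.34 (adjusted p = 0.258 and 0.259).

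The respiratory chain score was 0.25, 0.45 and 0.22 in P16 libraries and 0.22, -0.31 and 0.09 in GFP libraries, so that P16 replicate 3 and GFP replicate 1 were level. Without GFP replicate 2 the medians were 0.13 for the respiratory chain, 0.17 for ribosomal proteins and 0.15 for the proteasome. The 12 tested genes encoded in the mitochondrion itself had a median of -0.18, with 0 past the edgeR test and 0 at an unadjusted p under 0.05. Leaving out P16 replicate 1 gave -0.44, and leaving out P16 replicate 2 gave -0.04. Their summed level was 146693.8 to 262852.8 CPM in P16 and 163777.5 to 259351.2 CPM in GFP libraries, so the ranges overlapped almost fully. Ribosome biogenesis genes had a median of -0.01 over 28 members. Transcript length moved with these values. All genes were split by length into 5 groups of like size. The shortest group, with at most 2393 exonic bases, had a median of 0.07, with 10.6% higher and 5.55% lower at an unadjusted p under 0.05, while the medians of the other groups lay between -0.02 and 0.01. The median exonic length was 1756 bases for the respiratory chain and 1775 bases for ribosomal proteins, and the part of length in these values was not tested.

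**Figure D3:**
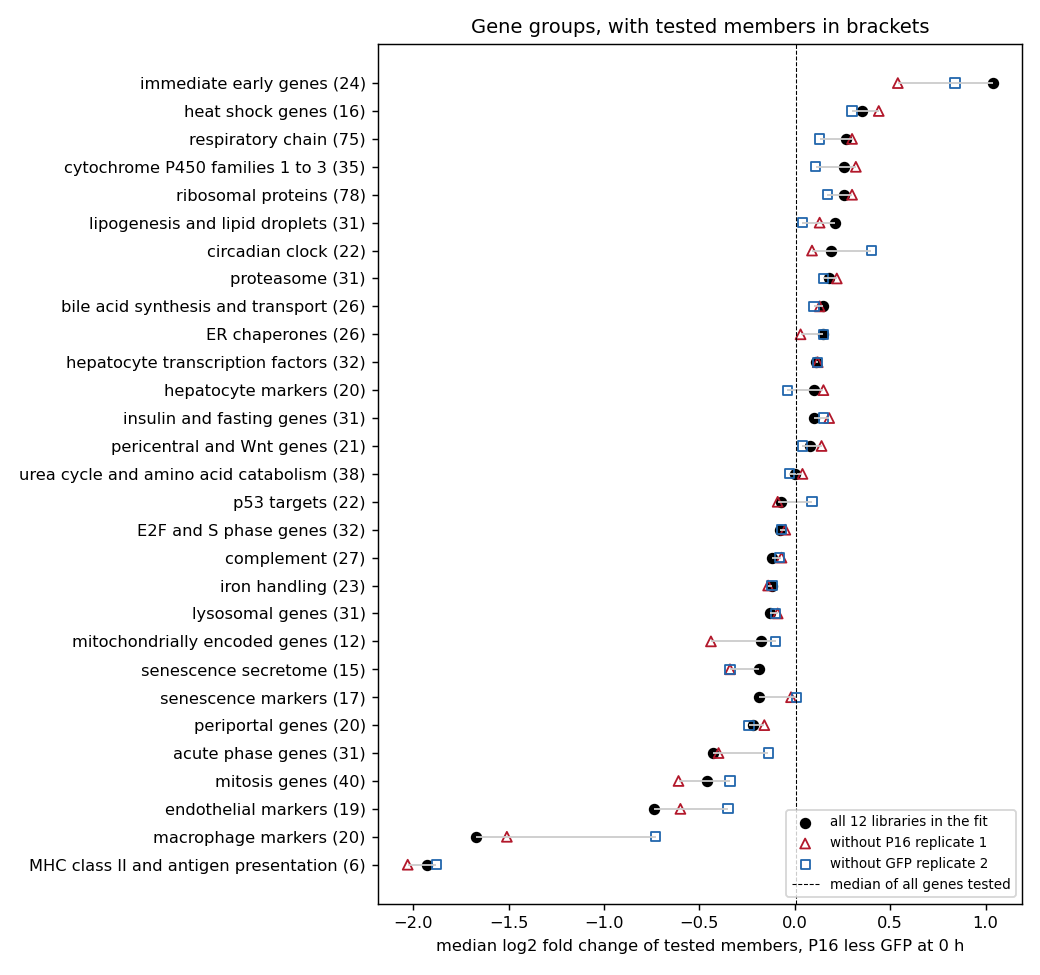
Each row is a gene group with its number of tested members, and the x axis is the median log2 fold change of those members, P16 less GFP. Black points use all libraries, red triangles leave out P16 replicate 1 and blue squares leave out GFP replicate 2, with the dashed line at the median of all genes. Immediate early genes lie highest at 1.04, and MHC class II genes at -1.93, macrophage markers at -1.67, endothelial markers at -0.74, mitosis genes at -0.46 and acute phase genes at -0.43 lie lowest.

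Zonal and nitrogen genes of hepatocytes held 1 gene that passed, Got1. Genes higher around the portal vein had a median of -0.22 over 20 members, with 5 of 20 lower (against 6.40% of all genes) and 0 higher at an unadjusted p under 0.05 and 0 past the test. Their median lay between -0.28 and -0.16 over the alternatives. Etnppl, a lyase of phosphoethanolamine, had 167.9, 112.4 and 156.8 CPM in P16 and 307.8, 183.1 and 191.7 CPM in GFP libraries (-0.64, SE 0.21, edgeR adjusted p = 0.216), and the urea cycle enzyme Asl was at -0.37 (adjusted p = 0.261). Genes higher around the central vein had a median of 0.08 over 21 members, with 3 higher (14.3%) and 0 lower. They included Rgn, an enzyme of ascorbate synthesis, at 0.68 (adjusted p = 0.196), and the secreted Wnt inhibitor Notum at 0.51 (adjusted p = 0.243). Of 38 genes of the urea cycle and amino acid breakdown Got1 alone fell, 5 were lower (13.2%) and 0 higher at an unadjusted p under 0.05, and the median was 0.00. Cth, the last enzyme of cysteine synthesis, had 438.9, 464 and 506.4 CPM in P16 and 773.7, 735.3 and 540.4 CPM in GFP libraries (-0.54, SE 0.17, adjusted p = 0.189).

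Among lipid and sterol genes Etfb and Ucp2, described above, were those past the test. The median was 0.21 for 31 lipogenic and lipid droplet genes, of which 24 were above 0, and it was 0.04 without GFP replicate 2 and 0.13 without P16 replicate 1. It was 0.04 for 34 genes of fatty acid oxidation and ketogenesis, and 0.03 for 30 genes of cholesterol synthesis and uptake, where it ran from -0.19 without GFP replicate 2 to 0.32 without GFP replicate 1. Mlxipl, the glucose-sensing factor ChREBP, had 558.3, 280.7 and 576 CPM in P16 and 272.3, 231.3 and 291.6 CPM in GFP libraries, with P16 replicate 2 inside the GFP range (0.83, SE 0.25, edgeR adjusted p = 0.198). Angptl8, a feeding-induced inhibitor of lipoprotein lipase, was at 1.28 (adjusted p = 0.333), and Bdh1, the ketone body dehydrogenase, at 0.37 (adjusted p = 0.212). Glycolysis and the pentose phosphate pathway had a median of -0.05 over 22 genes, gluconeogenesis and glycogen 0.08 over 20, and apolipoproteins 0.04 over 22.

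Bile acid genes had 6 of 26 members higher (23.1%) and 1 lower (3.85%) at an unadjusted p under 0.05, with 0 past the test and a median of 0.15. Nr1h4, the bile acid receptor FXR, had 119.7, 121.5 and 133.2 CPM in P16 and 95.3, 83.8 and 90.6 CPM in GFP libraries (0.47, SE 0.12, edgeR adjusted p = 0.118). Nr0b2, the FXR-induced repressor SHP, had 56.6, 105.3 and 67.1 CPM in P16 and 48.7, 33.3 and 28.4 CPM in GFP libraries (1.06, SE 0.30, adjusted p = 0.189). Cyp39a1, an oxysterol hydroxylase, had 15.6, 21 and 16 CPM in P16 and 23, 64.2 and 27.4 CPM in GFP libraries (-1.13, SE 0.33, adjusted p = 0.196). The receptor and its repressor target were higher, and the hydroxylase lower, in every P16 library.

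Of 35 cytochrome P450 genes of families 1 to 3 Cyp2c69 alone rose and 0 fell, with 5 higher (14.3%), 2 lower (5.71%) and a median of 0.26, or 0.11 without GFP replicate 2. Cyp2c40, which closely resembles Cyp2c69, had 5, 20.1 and 17.3 CPM in P16 and 3.46, 2.51 and 5.01 CPM in GFP libraries (1.96, SE 0.42, edgeR adjusted p = 0.0815), and reads of the pair may be shared. Both belong to 12 tested genes that are higher in female than in male mouse liver, whose median was 0.27, or 0.80 without GFP replicate 1, 0.08 without GFP replicate 3 and 0.02 without P16 replicate 3. Male-biased liver genes had a median of -0.07 over 20. Conjugation enzymes had a median of 0.02 over 35 genes. Among 32 hepatocyte transcription factors, with a median of 0.11, Bcl6, a transcriptional repressor, had 44.3, 51.6 and 82.1 CPM in P16 and 13.3, 14.8 and 10.8 CPM in GFP libraries (2.19, SE 0.49, adjusted p = 0.14). Cebpd, an inflammation-induced factor, had 3.97, 2.74 and 1.91 CPM in P16 and 5.65, 12.7 and 5.31 CPM in GFP libraries (-1.47, SE 0.35, adjusted p = 0.0859).

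The cell cycle pathway on which P16 acts was read in both arms. The CDK inhibitor and D cyclin list, Cdkn2a included, summed to 130.9 to 167 CPM in P16 and 128.8 to 160.4 CPM in GFP libraries. E2F and S phase genes summed to 294.9 to 337.1 CPM in P16 and 302.3 to 321.8 CPM in GFP libraries. Such a sum follows its abundant members. Among these Tk1, whose exons overlap Afmid, had 28.6 to 42.8 CPM in P16 and 15.9 to 29.5 CPM in GFP libraries. The sum says little of sparse members such as Uhrf1, with 1, 0 and 0 reads in P16 and 3, 9 and 2 reads in GFP libraries. Of 14 genes of the CDK inhibitor and D cyclin axis 0 passed, and the median was -0.21. Ccnd3, the D cyclin with the lowest p, had 19.2, 14.1 and 17.4 CPM in P16 and 18.5, 30.4 and 23.2 CPM in GFP libraries (-0.51, SE 0.17, edgeR adjusted p = 0.204). Cdk4, Ccnd1 and Rb1, named here for their place in the pathway after their values were seen, were at -0.12, -0.06 and -0.19 (adjusted p = 0.751, 0.946 and 0.787). Cdkn1a, the inhibitor p21, had 3.26, 4.32 and 8.92 CPM in P16 and 6.55, 31 and 12.8 CPM in GFP libraries (-1.62, SE 0.63, adjusted p = 0.322). The 32 E2F and S phase genes had a median of -0.08, with 2 higher and 3 lower at an unadjusted p under 0.05.

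Mitosis genes were sparse at 0 h, and more were lower than higher. Of 40 tested, Top2a fell, 9 were lower (22.5%) and 2 higher at an unadjusted p under 0.05, and the median was -0.46, or -0.34 without GFP replicate 2 and -0.70 without P16 replicate 2. Their summed level was 18.5 to 22 CPM in P16 and 23.6 to 29.4 CPM in GFP libraries. Aurkb, a kinase of chromosome segregation, had 0 reads in each P16 library and 6, 2 and 4 reads in GFP libraries (edgeR adjusted p = 0.0784). Mki67, the proliferation antigen, had 1, 1 and 2 reads in P16 and 5, 8 and 7 reads in GFP libraries (adjusted p = 0.116). Top2a, Aurkb and Mki67 passed the filter only through the 48 h libraries, where Mki67 was at 92.4 CPM in P16 and 88.6 CPM in GFP. They did not pass it in the 6 libraries at 0 h alone, so the list count and median rest partly on such members. These counts of a few reads per library limit what can be seen of the cycle at rest.

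Senescence markers were mixed in sign. The list joins markers that rise in senescence with Lmnb1, which falls, so its median cannot tell whether they moved together. Of 17 tested, Gdf15 rose and 0 fell, 3 were higher and 3 lower at an unadjusted p under 0.05, and the median was -0.19, or 0.14 with the 6 libraries alone and -0.30 to 0.02 without single libraries. The 3 higher were Cdkn2a itself, which the vector delivers, Gdf15 and Lmnb1. Lmnb1, a nuclear lamina gene whose loss marks senescence, had 5, 3.04 and 5.31 CPM in P16 and 4.07, 2.46 and 2.17 CPM in GFP libraries (0.62, SE 0.26, edgeR adjusted p = 0.307). Of 31 secreted factors of senescent cells 15 passed the filter, of which Gdf15 rose, with a median of -0.19. Of 22 p53 targets Gdf15 rose and 0 fell. Gadd45a, a growth arrest gene, had 80.3, 17.9 and 33.8 CPM in P16 and 13, 9.49 and 10 CPM in GFP libraries (2.02, SE 0.50, adjusted p = 0.175), and the list median was -0.07. Thbd, thrombomodulin, had 0, 0.486 and 0.637 CPM in P16 and 0.527, 2.01 and 2.09 CPM in GFP libraries (-1.99, SE 0.66, adjusted p = 0.208). Thbd passed the filter only through the 48 h libraries, at 4.33 CPM in P16 and 3.01 CPM in GFP. F2r, the thrombin receptor PAR1, had 16, 36.5 and 19.5 CPM in P16 and 27.1, 26.3 and 33.4 CPM in GFP libraries (-0.26, SE 0.27, adjusted p = 0.731). Neither had separate groups.

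Growth factor and fate genes held 2 that passed, Erbb3 and Hes1. Of 24 growth factor genes Erbb3 rose, with a median of 0.05. Errfi1, the feedback inhibitor of EGF receptors, had 751.3, 437.4 and 263.5 CPM in P16 and 783.7, 1210.2 and 940.5 CPM in GFP libraries (-1.02, SE 0.30, edgeR adjusted p = 0.196). Of 13 Notch and biliary genes Hes1 rose, with a median of -0.16, and Heyl, another Notch target, was at -2.95 with 0 to 0.283 CPM in P16 and 0.279 to 1.36 CPM in GFP libraries (adjusted p = 0.204). YAP genes had a median of 0.10 over 15, with Ajuba, a LIM protein of that pathway, at -0.71 (adjusted p = 0.147). TGF-beta and activin genes had a median of -0.13 over 22, with 5 lower (22.7%) and 1 higher at an unadjusted p under 0.05. The median was -0.25 without P16 replicate 1. Among them was the inhibitory Smad7 at 3.89, 5.29 and 5.52 CPM in P16 and 12.7, 10.6 and 7.26 CPM in GFP libraries (-1.05, SE 0.26, adjusted p = 0.106). Lysosomal genes had a median of -0.13 over 31, with Grn fallen and 5 lower (16.1%) at an unadjusted p under 0.05.

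Macrophage and endothelial markers were mostly lower in the P16 preparations. Of 20 tested macrophage markers Cd74 and Slc40a1 fell, 19 were lower (95.0%, against 6.40%) and 0 higher at an unadjusted p under 0.05, 7 were lower without overlap, and the median was -1.67. Of 19 endothelial markers 0 passed, 9 were lower (47.4%) and 0 higher, with a median of -0.74. Their summed level was 89 to 108.4 CPM in P16 and 124.8 to 230.8 CPM in GFP libraries, and neither list had a marker at 0 in all 6 libraries. Without GFP replicate 2 the medians were -0.73 for macrophages and -0.35 for endothelium. The macrophage score was -1.72, -1.16 and -1.66 in P16 libraries and -1.02, 1.12 and -0.10 in GFP libraries, so GFP replicate 1 was near the P16 libraries.

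MHC class II genes were lower in the same direction, with a median of -1.93 over 6, or -1.88 without GFP replicate 2, and Cd74 the member that fell. H2-Aa, a class II chain, had 1.35, 1.22 and 1.35 CPM in P16 and 3.31, 4.35 and 8.6 CPM in GFP libraries (-2.05, SE 0.45, edgeR adjusted p = 0.0758), with GFP replicate 3 the highest. Stellate markers had a median of -0.31 over 15, or -0.03 without P16 replicate 1 and -0.09 without GFP replicate 3, and cholangiocyte markers -0.28 over 5. At an unadjusted p under 0.05, 1 stellate marker was lower and 1 cholangiocyte marker higher. Of 16 lymphocyte markers 1 was tested, of 12 neutrophil markers 2, and of 12 red cell and platelet markers 2. The neutrophil genes summed to 1.7 to 6.02 CPM in P16 and 4.22 to 159.1 CPM in GFP libraries, where Lcn2, also an acute phase gene, stood at 154.8 CPM in GFP replicate 2.

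Acute phase genes, which the liver secretes in inflammation, had a median of -0.43 over 31, with 10 lower (32.3%) and 0 higher at an unadjusted p under 0.05 and 0 past the test. Saa2, serum amyloid A2, had 12.9, 20.4 and 17 CPM in P16 and 29.1, 5592.5 and 362 CPM in GFP libraries (-6.89, SE 1.82, edgeR adjusted p = 0.189). Orm2, an orosomucoid, had 9.53, 16.5 and 8.99 CPM in P16 and 12.7, 1066.7 and 78.3 CPM in GFP libraries (-5.04, SE 1.47, adjusted p = 0.212). The GFP arm thus spread far more than the P16 arm, whose libraries all lay low, and without GFP replicate 2 the list median was -0.14. The list score was -0.84, -0.65 and -0.96 in P16 and -0.78, 0.94 and -0.17 in GFP libraries, so GFP replicate 1 lay within the P16 range. C3, the central complement component, was at -0.56 (adjusted p = 0.206), and 27 complement genes had a median of -0.12. Icam1 and Vcam1, adhesion molecules of NF-kappaB signalling, were at -1.16 and -2.01 (adjusted p = 0.118 and 0.175), while that list had a median of 0.05 over 19. Interferon-stimulated genes had a median of 0.06 over 35, or -0.15 to 0.25 without single libraries, and coagulation genes -0.06 over 28.

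**Figure D4:**
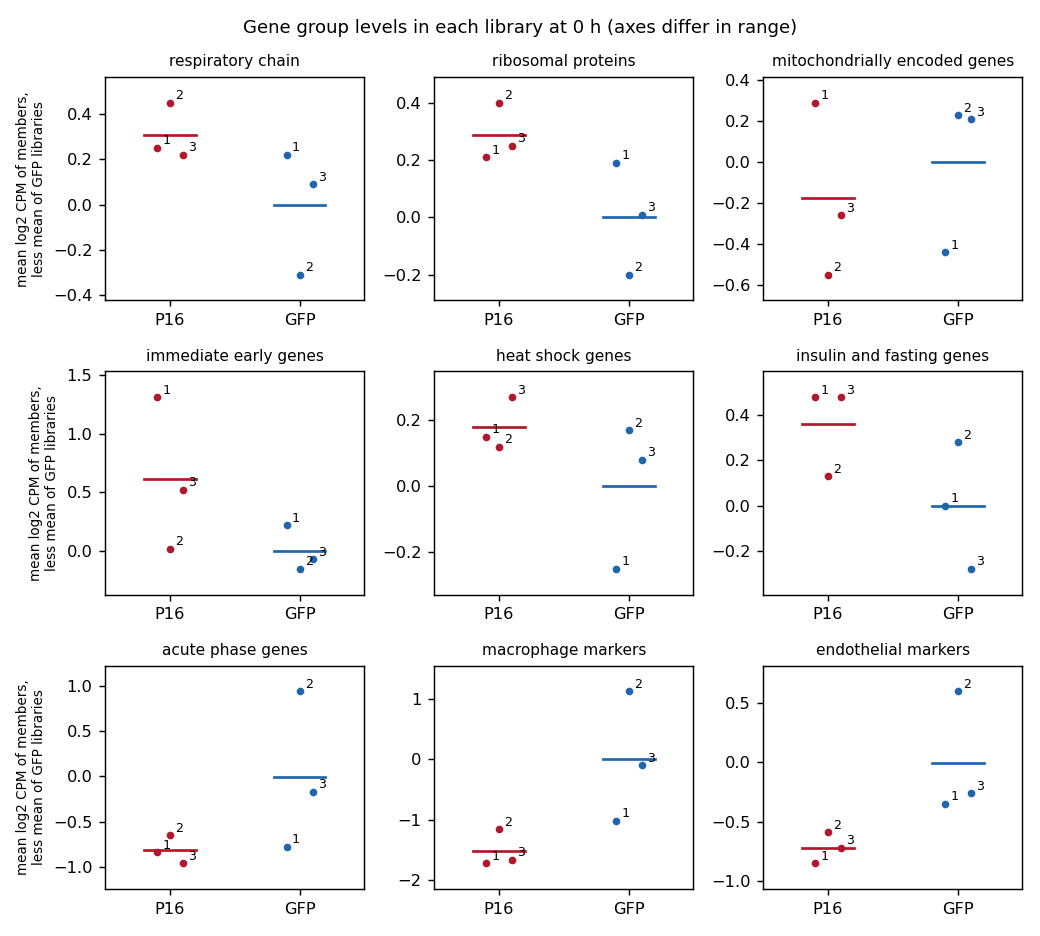
Each panel gives the mean log2 CPM of a gene group in each library, less the mean of the GFP libraries, with P16 left of GFP, the replicate number beside each point and a bar at the mean of 3. GFP replicate 2 is highest for acute phase, macrophage and endothelial genes and lowest for respiratory chain and ribosomal protein genes, and P16 replicate 1 is highest for immediate early genes.

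Iron genes included Slc40a1 as the gene that fell, with 7 of 23 lower (30.4%) and 2 higher (8.70%) at an unadjusted p under 0.05 and a median of -0.12. Trf, transferrin, had 182.5, 153 and 154.1 CPM in P16 and 80.6, 82.9 and 95.4 CPM in GFP libraries (0.92, SE 0.23, edgeR adjusted p = 0.137), and its exons overlap another gene model. Slc40a1 and Smad7 were among the 7 lower.

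Genes that narrowly missed the test, taken as the 10 with the lowest p that had at least 5 CPM and no overlap, included Txnip and Stip1 described above, and 7 more given here. Osgin1, an oxidative stress-induced growth inhibitor, had 689.6, 609.4 and 794.6 CPM in P16 and 473.3, 341.9 and 399.9 CPM in GFP libraries (0.79, SE 0.17, edgeR adjusted p = 0.0758). Sgk1, a kinase induced by glucocorticoid, had 4.84, 4.68 and 7.43 CPM in P16 and 13, 14.2 and 8.6 CPM in GFP libraries (-1.08, SE 0.23, adjusted p = 0.0742). Kank1, Cfap20 and Fam214a were at 0.59, 0.60 and 0.66, Crybg1 at -0.74 and 4732419C18Rik at 1.44, with adjusted p from 0.0623 to 0.0763. Of these 9 genes, 7 were higher and Crybg1 and Sgk1 were lower in P16 libraries.

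The changes at rest were mostly smaller 48 h after hepatectomy, where other mice were used. Between the arms 280 genes passed at 48 h (2.28%). Of the 27 genes of the comparison at 0 h, 18 had the same sign at 48 h and 26 a smaller log2 fold change, and the median size was 1.51 at 0 h and 0.40 at 48 h. Since these genes were chosen at 0 h, a smaller value elsewhere is partly built in. Erbb3 was the only one of them called at 48 h, at 53.5 CPM in P16 and 91.4 CPM in GFP libraries, which is opposite to 0 h (-0.77, edgeR adjusted p = 0.00662). The test of the difference of the effects passed for 12 of all genes (0.0979%), among them Erbb3 (-1.43, SE 0.17, adjusted p = 0.00131), Grn (1.24, SE 0.21, adjusted p = 0.0351) and the unnamed gene model of the 27. Slc25a25 was at -0.51 at 48 h (adjusted p = 0.076, and for the difference 0.0557), and Ddt at 0.46 and Rnf186 at 0.14 (adjusted p for the differences 0.119 and 0.0551). For these 3 genes the difference between the times did not pass.

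**Figure D5:**
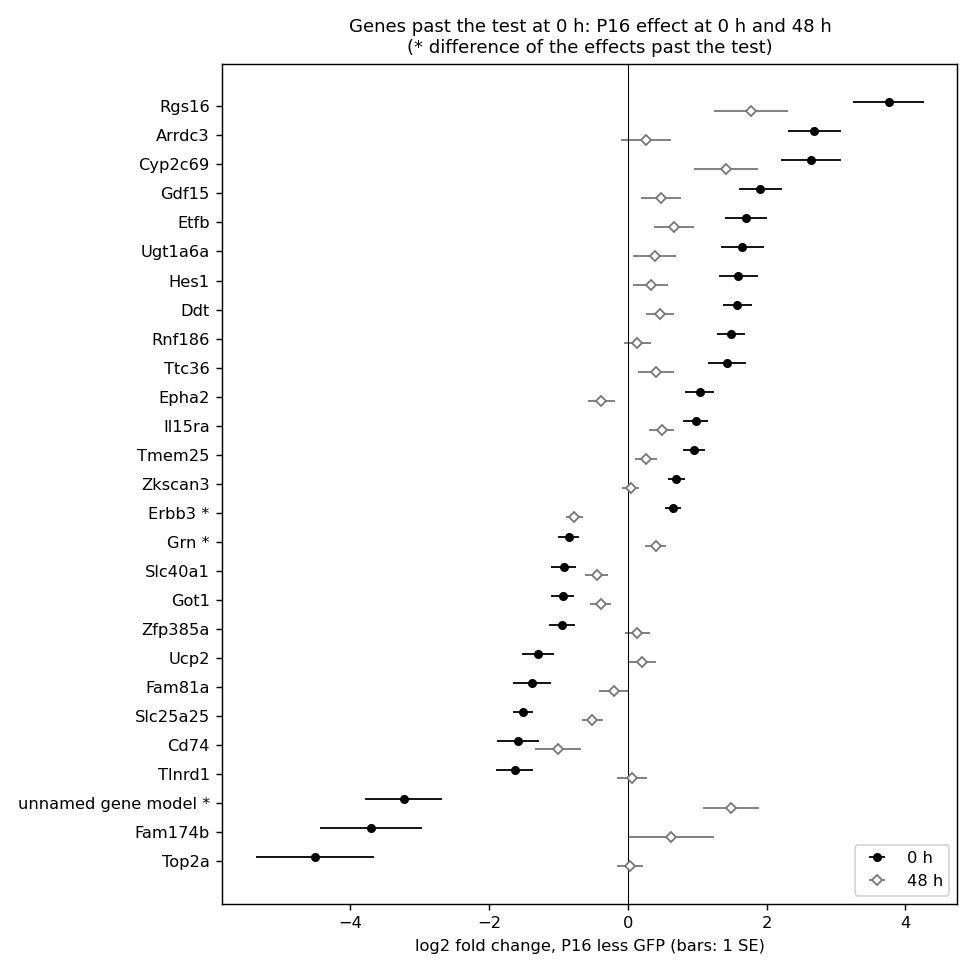
Each row is 1 of the 27 genes, with the log2 fold change, P16 less GFP, at 0 h (filled circles) and 48 h (open diamonds), and bars of 1 SE. Most diamonds lie nearer 0 than the circles. In 18 of the 27 genes both lie on the same side of 0, and Erbb3 and Grn are among the others.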

How the data were processed

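Messenger RNA of isolated hepatocytes from 12 mice (3 in each of 4 groups) was sequenced. The values are raw read counts for each gene, as deposited. The submitters' processing notes name HTSeq, Picard, SAMtools, STAR 2.5.0c and Trim Galore, and the build mm10. The sources used here give no strand or counting settings. Reads with no feature (5.16 to 8.11% at 0 h) and ambiguous reads (4.87 to 7.10%) were left out of library sizes. Of 31053 gene rows 31011 were matched to GENCODE vM21 for positions. A spreadsheet had turned 27 symbols into dates, and names were taken through the Ensembl IDs.

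Genes were kept by the edgeR expression filter over all 12 libraries in 4 groups (12257 genes). A gene with few reads at 0 h could thus enter through the 48 h libraries. All 12 libraries were fitted together with edgeR 4.0.16 (R 4.3.3), with TMM scaling, 4 group means, the robust quasi-likelihood test and Benjamini-Hochberg adjustment over all genes at 0.05. The SE is the log2 fold change over the root of F. CPM uses TMM-scaled library sizes. DESeq2 1.42.0, limma-voom (limma 3.58.1), other scalings and filters, the 6 libraries alone, a replicate block and leaving out each library were alternatives. Replicates were separate mice, and pairs of one group differed beyond counting noise (chi-square per degree of freedom of at least 26.4, correlation 0.95 to 0.964). Counting intervals are exact at 95% and cover counting error only.

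Genes, lists and members were chosen with earlier results of these data known. Named genes are Cdkn2a, Thbd, F2r, Cdkn1a, Mki67 and Lmnb1, those past the test, up to 3 members of lowest p of each list, and the 10 nearest misses with at least 5 CPM and no overlap. List scores used a prior count of 0.5. The unnamed gene model is given only as a count. Results for some named genes are not reported here.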

Additional observations from a re-analysis of the deposited data

Results flagged for a closer look

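For Erbb3 and Grn the effect of P16 differed between 48 h after hepatectomy and 0 h by a test of the difference itself. Erbb3 was at -0.77 at 48 h and 0.65 at 0 h, a difference of -1.43 on the log2 scale (SE 0.17, edgeR adjusted p = 0.00131), which passed in 14 of 14 alternatives with an adjusted p from 8.85e-12 to 0.0104. Grn was at 0.40 at 48 h and -0.85 at 0 h, a difference of 1.24 (SE 0.21, adjusted p = 0.0351), which passed in 11 of 14 with an adjusted p from 1.79e-05 to 0.0699. Both had no overlap between the arms at 0 h. Groups of 3 libraries were too small to search for single outlying libraries.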

How the results depend on the processing

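The 27 calls (15 higher, 12 lower) became 9 (7 and 2) with the 6 libraries alone, 214 (98 and 116) with DESeq2, 17 (3 lower) with limma-voom and 160 (81 and 79) with no filter. Replicate numbers did not pair the samples (correlations of deviations 0.0365, -0.041 and 0.00416), and the replicate block gave 57 calls (38 and 19). Leaving out 1 library gave 5 to 148 calls, 4 to 67 higher and 1 to 81 lower. Without GFP replicate 2 and P16 replicate 1 together, a setting chosen after seeing the data, 18 genes passed, 8 higher and 10 lower. The cause was not tested. The 12 differences between the times became 227 with DESeq2, 93 with library size alone, 1 with limma-voom and 173 with no filter, and the 6 libraries alone give no such difference. Cdkn2a (11.93) was at 11.07 with DESeq2, 11.81 with the block, and 11.2 to 12.41 without single libraries. Small values that turned sign were Cd4 (-0.36; 0.11 with limma-voom, -0.78 to 0.67 without single libraries), Itga2b (0.25; -0.27 to 1.07), Alas2 (-0.08; -0.27 to 0.03), and, with both libraries left out, Ddx3y (0.18; -0.06). Over 162 named genes the alternatives gave 2145 values with the same call, 137 with a call lost, 125 with one gained and 9 with the sign turned. Of the 51 list medians 747 values moved within the replicate spread and 18 beyond it. Few reads limit Top2a, Aurkb, Mki67 and Fam174b.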
